A study of Mus musculus with 2 samples.

Results

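Mitogen-activated protein (MAP) kinases are the last tier of a kinase relay that carries signals from surface receptors to the nucleus. A MAP kinase kinase kinase activates a MAP kinase kinase, which phosphorylates the activation loop of the MAP kinase, and the MAP kinase then acts on further kinases and on transcription factors. In T cells the ERK branch follows antigen receptor and Ras signals, while the JNK and p38 branches also answer stress and cytokines. In T cells p38 has a further route of activation, in which the receptor-linked kinase Zap70 phosphorylates it without a MAP kinase kinase. The 9 MAP kinase genes described here were chosen by gene symbol, out of 23167 symbols in each library. They are Mapk3 (ERK1), Mapk6 (ERK3), Mapk7 (ERK5), Mapk8 (JNK1), Mapk9 (JNK2) and the 4 p38 genes Mapk14 (p38α), Mapk11 (p38β), Mapk12 (p38γ) and Mapk13 (p38δ).

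RNA was measured in 2 kinds of resting T cell, naive CD4 (precursors of helper cells) and naive CD8 (precursors of cytotoxic cells). Both came by flow cytometry out of the spleen and lymph nodes of Foxp3-GFP mice on a C57/BL6 background. The gate for both took cells with high CD62L and low CD44 that lacked CD25 and the Foxp3 reporter. By the labels they differ in cell type alone. The labels give neither age nor treatment, and how many mice were used is not given in the sources used here. Each cell type had 1 library of ribosomal-RNA-depleted total RNA, so replicate spread is unknown and no p-value is given. Levels are RPKM, read numbers scaled to gene length and library total, so levels of different genes can be set side by side within a library. Read totals are not given, and those worked back from the RPKM were 24741945 for CD4 and 23853921 for CD8. Intervals are exact 95% intervals from the reads of each gene. Since they hold counting error alone, they speak of these 2 libraries and leave out variation between mice or sorts.

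The transcripts of these genes share little sequence with each other, which matters for assigning reads. Among all pairs of the 9 genes the longest identical stretch of transcript was 26 bases, between Mapk3 and Mapk14, and Mapk11 shared at most 20 bases with Mapk14, 17 with Mapk12 and 18 with Mapk13 (GENCODE M21 transcripts, either strand). Of the 50-base words in Mapk11, Mapk9, Mapk13 and Mapk14 transcripts, 0 occurred in a transcript of another gene. The share was 5.03% for Mapk6, all of it with Gm49037, and at most 2.1% for the other genes. At 35 bases Mapk11 shared 0.57% of its words with other genes.

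The upstream sequences of Mapk11 and Mapk9 are shown because these genes had the highest CD4 to CD8 ratios of the 7 that reached 1 RPKM in either library, and because the series is about 5-hydroxymethylcytosine, an oxidised form of the methylated cytosine found mostly at CpG sites. They were taken by symbol from RefSeq (GRCm38.p6), while the reads were mapped to mm9. The capitals mark CpG sites, and annotated exons were left off the gene-proximal end. The Mapk11 stretch (chr15:89149629-89149856, minus strand) has 228 bases and 15 CpG sites. The Mapk9 stretch (chr11:49846501-49846750, plus strand) has 250 bases and 14 CpG sites.
Mapk11: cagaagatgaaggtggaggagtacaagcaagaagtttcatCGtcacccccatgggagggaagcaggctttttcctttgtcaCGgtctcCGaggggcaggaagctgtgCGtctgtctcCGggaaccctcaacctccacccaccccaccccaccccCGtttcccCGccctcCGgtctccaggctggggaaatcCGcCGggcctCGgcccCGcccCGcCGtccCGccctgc
Mapk9: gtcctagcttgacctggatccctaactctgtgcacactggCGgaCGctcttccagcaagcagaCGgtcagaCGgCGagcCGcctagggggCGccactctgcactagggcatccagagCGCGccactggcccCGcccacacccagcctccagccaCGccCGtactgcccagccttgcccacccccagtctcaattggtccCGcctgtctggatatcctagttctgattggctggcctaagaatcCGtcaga
Over the full 250 bases before its start Mapk11 had 18 CpG sites, against a median of 6 in all 32851 such windows, and 78.3% of windows had fewer. A window was at hand for 8 of the 9 genes. Mapk14 had 30 CpG sites in the window before its more upstream start and 14 before its other start. Mapk8 had 36 before its own more upstream start and 1 before its other start. Mapk6 (29 and 32), Mapk7 (27 in each window) and Mapk13 (25) had more CpG sites than Mapk11, while Mapk9 (14) and Mapk12 (11) had fewer. The GC box GGGCGG, searched on both strands, occurred 4 times in the Mapk11 window and once in the Mapk9 window, and 32.7% of all windows held it. The AP-1 site TGACTCA (4.46% of all windows) and the ETS site CCGGAAGT (2.88%) were in neither of these windows, and the Runx core TGTGGT (14.0%) was also in neither.

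Mapk11 had by far the largest difference of the compared genes of the family. Its level was 29.2 RPKM in CD4 (95% interval 27.8 to 30.6) and 3.42 RPKM in CD8 (2.96 to 3.93), from 1754 and 198 reads. The CD4 library was thus 8.54-fold higher, with an interval of 7.37 to 9.94. Reads are known only up to a common multiple, and at the smallest whole reads the values allow, 877 and 99, the interval widened to 6.93 to 10.6. Differences across genes were measured as log2((CD4 RPKM + 1)/(CD8 RPKM + 1)), for genes that reached 1 RPKM in either library. On this scale Mapk11 was at 2.77, which gave it rank 17 among 10228 genes toward CD4. With a pseudocount of 0.1 RPKM in place of 1 its rank was 57. The 3 genes closest to Mapk11 in log2(RPKM + 1) over the 2 libraries were Ppm1j at a distance of 0.053, 2210010C17Rik at 0.20 and the microRNA gene Mir3061 at 0.61. Ppm1j, a protein phosphatase gene of the PP2C family, had 29.0 RPKM in CD4 and 3.58 in CD8.

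Mapk14, the p38 isoform found in most tissues, was the highest of the 9 genes in both libraries. It had 35.4 RPKM in CD4 (34.2 to 36.7) and 28.6 in CD8 (27.5 to 29.8), a 1.24-fold difference (1.17 to 1.3) from 3307 and 2578 reads. Its interval lay above 1 and its size was far from 2-fold. Mapk12, a form known mainly from muscle, had 0.387 RPKM in CD4 and was listed at 0 in CD8. At the read total worked back, its CD4 value stands for 18 reads at the annotated length and for at least 3 reads at any length. If the 0 in CD8 is a true count, its interval reaches 0.0823 RPKM. Mapk13 was listed at 0 in both libraries. A listed 0 is not read as low expression here, because Rpl26 and Ndufs5, which encode a ribosomal protein and a complex I subunit that all cells use, were at 0 in both libraries as well. Mapk12 and Mapk13 were under 1 RPKM and were not compared.

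**Figure D1:**
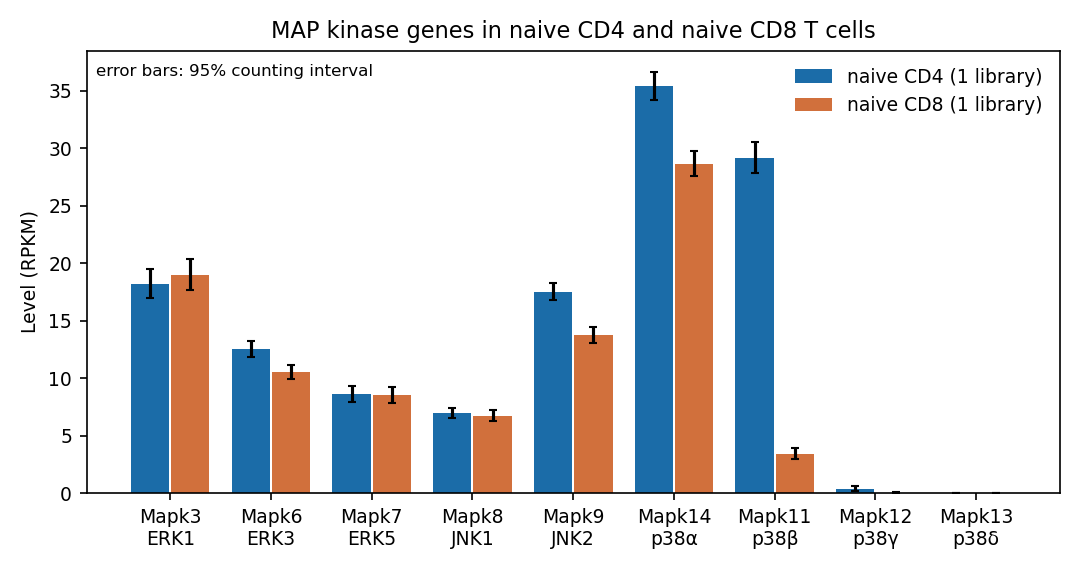
Level in RPKM of the 9 MAP kinase genes in the naive CD4 library (blue) and the naive CD8 library (orange), 1 library each, with 95% counting intervals as error bars. Mapk11 stood at 29.2 RPKM in CD4 and 3.42 in CD8, and each other gene at 1 RPKM or more had bars of similar height in the 2 libraries.

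The make-up of the p38 family differed between the libraries. The 4 p38 genes summed to 65.0 RPKM in CD4 and 32.1 in CD8, a ratio of 2.03. In CD4 Mapk14 gave 54.5% of that sum, Mapk11 44.9% and Mapk12 0.596%. In CD8 Mapk14 gave 89.3% and Mapk11 10.7%. Without Mapk11 the sums were 35.8 and 28.6 RPKM, a ratio of 1.25. Within a library Mapk14 stood 1.21-fold above Mapk11 in CD4 and 8.39-fold above it in CD8. These shares do not depend on how the libraries are scaled to each other. Mapk13 in both libraries and Mapk12 in CD8 entered the sums and shares at their listed 0. If such a 0 is a missing value, the sums and shares cover only the p38 genes with a value.

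**Figure D2:**
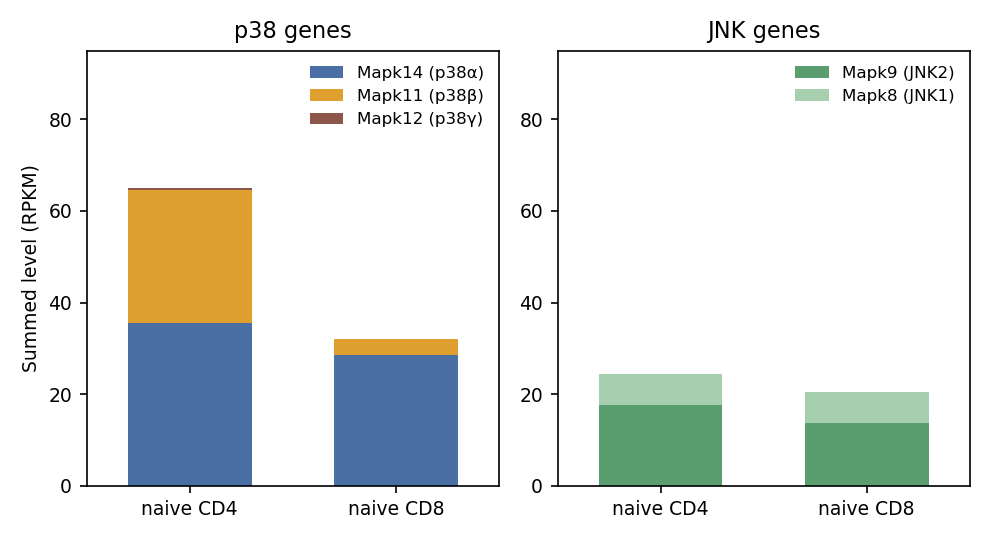
Summed level in RPKM of the p38 genes (left) and the JNK genes (right) in the naive CD4 and naive CD8 libraries, stacked by gene. The p38 stack was 65.0 RPKM in CD4 and 32.1 in CD8, with most of the gap in Mapk11, while the JNK stacks were 24.5 and 20.5 RPKM.

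The p38 genes lie in neighbouring pairs, Mapk11 beside Mapk12 and Mapk13 close to Mapk14 (RefSeq, GRCm38.p6). In each pair 1 gene reached 1 RPKM, while Mapk12 was under it and Mapk13 was listed at 0. Hdac10, a histone deacetylase family gene and the next protein-coding gene on the Mapk12 side, had 15.0 RPKM in CD4 and 7.68 RPKM in CD8 (1.96-fold, 1.76 to 2.19). Plxnb2, the plexin gene on the Mapk11 side, had 3 reads in CD4 and 2 in CD8. Near the other pair, the kinase gene Srpk1 had 174 RPKM in CD4 and 126 RPKM in CD8 (1.38-fold, 1.35 to 1.41). Brpf3 was at 2.94 and 2.14 RPKM (1.37-fold, 1.18 to 1.60). Plxnb2 was under 1 RPKM in both libraries and was not compared. Hdac10, Srpk1 and Brpf3 were not 2-fold apart by the size rule, although Hdac10 was close to it with a log2 difference of 0.89.

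The JNK genes differed little. Mapk9, which encodes JNK2, had 17.5 RPKM in CD4 (16.8 to 18.3) and 13.7 in CD8 (13.1 to 14.4), 1.28-fold higher in CD4 (1.19 to 1.36). Mapk8, which encodes JNK1, had 6.95 RPKM in CD4 and 6.74 RPKM in CD8, a ratio of 1.03 (0.941 to 1.13) that this depth cannot tell from 1. Mapk9 was the higher of the pair in both libraries, 2.52-fold above Mapk8 in CD4 and 2.04-fold above it in CD8. It made up 71.6% of the summed JNK level in CD4 and 67.1% in CD8.

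The ERK genes among the members were near equal. Mapk3, the classical ERK1 that the Ras and Raf relay activates, had 18.2 RPKM in CD4 (17.0 to 19.5) and 19.0 in CD8 (17.7 to 20.4). The CD4 to CD8 ratio was 0.959 (0.868 to 1.06), which counting error alone could give. Mapk7, the large ERK5 kinase with its own activator Map2k5, was at 8.58 and 8.52 RPKM (1.01-fold, 0.899 to 1.13). Mapk6, the atypical ERK3 that is regulated largely through its stability, had 12.5 RPKM in CD4 and 10.5 RPKM in CD8 (1.19-fold, 1.1 to 1.29). Mapk6 is the member with the most sequence in common with another gene, so its value is the least certain on that score.

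**Figure D3:**
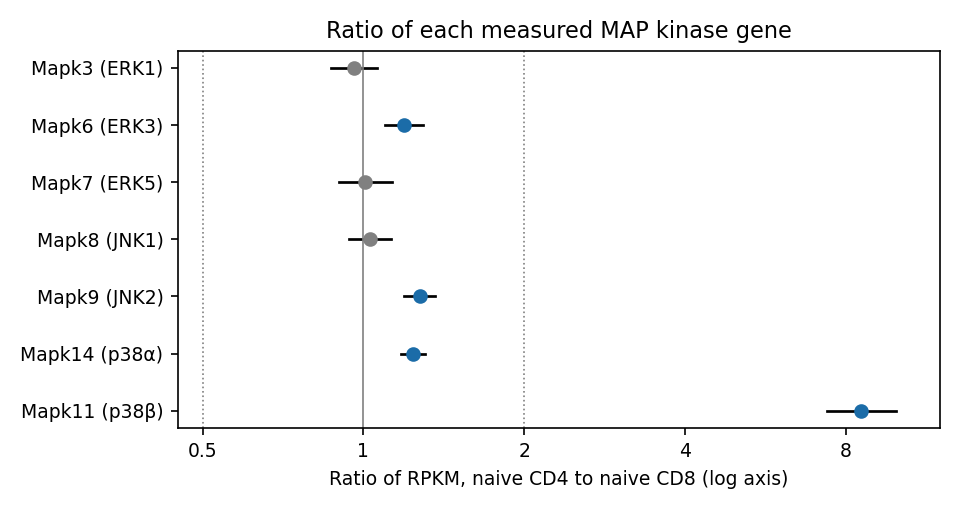
Ratio of the RPKM in naive CD4 to that in naive CD8 for the 7 compared genes, on a log axis, with exact 95% counting intervals. Points are blue where the interval lies above 1 and grey where it holds 1, and dotted lines mark a ratio of 2 in either direction. Mapk11 at 8.54 lies beyond the line, and the other 6 genes lie between 0.959 and 1.28.

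Of the 7 compared genes, 1 passed the 2-fold size rule (a log2 difference of 1 or more) toward CD4 and 0 passed it toward CD8. Over all 10228 compared genes the rule took 5.48%, with 2.41% toward CD4 and 3.07% toward CD8. The family was chosen with the Mapk11 difference known, so the count is a description. The counting interval of the ratio lay above 1 for 4 of the 7 (Mapk6, Mapk9, Mapk11 and Mapk14), against 45.0% of all genes, and below 1 for 0, against 27.0%. The median log2 difference of the 7 was 0.23, beside 0.08 over all compared genes. Small differences depended on scaling. Mapk3 was above 0 (0.14) when both libraries were rescaled to the same sum of RPKM, and Mapk7 (-0.07) and Mapk8 (-0.04) were below 0 when centred on the median gene.

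The order of the levels was the same in both libraries apart from Mapk11. In CD4 it ran Mapk14, Mapk11, Mapk3, Mapk9, Mapk6, Mapk7 and Mapk8, and the intervals of Mapk3 and Mapk9 overlapped. In CD8 it ran Mapk14, Mapk3, Mapk9, Mapk6, Mapk7, Mapk8 and Mapk11, with no overlap between neighbours. Mapk11 was thus in place 2 of the 7 compared genes in CD4 and in place 7 in CD8. Among all compared genes it stood at the 73.4 percentile of levels in CD4 and at the 17.5 percentile in CD8, while Mapk14 stood at 78.8 and 73.9.

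The MAP kinase kinases are the direct activators. Of their 7 genes, all compared, 0 were at least 2-fold apart, and their median log2 difference was 0.12. Map2k1, the ERK activator MEK1, had 45.2 RPKM in CD4 and 41.4 RPKM in CD8 (1.09-fold, 1.03 to 1.16), and the JNK activator Map2k7 had 29.7 and 27.2 (1.09-fold, 1.03 to 1.16). The 2 dedicated p38 activators were looked at after their values were seen. Map2k6 had 9.0 RPKM in CD4 and 4.82 RPKM in CD8 (1.87-fold, 1.59 to 2.19), while Map2k3 was at 4.56 and 5.99 RPKM (ratio 0.761, 0.640 to 0.903). Over all genes the counting interval lay above 1 for 45.0% and below 1 for 27.0%. A link of Map2k6 or Map2k3 to Mapk11 was not tested. Map2k5, the ERK5 activator and likewise picked afterwards, was at 8.22 and 8.91 RPKM (ratio 0.924, 0.81 to 1.05).

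Further up the relay, 18 MAP3K and Raf genes had a median of 0.19, and only 1 of them passed the size rule, toward CD8. That gene was Map3k8, the kinase Tpl2, at 7.73 RPKM in CD8 and 3.36 RPKM in CD4 (2.30-fold, 1.95 to 2.72), with a log2 difference of -1.0 at the edge of the rule. Map3k3 was the highest, with 123 RPKM in CD4 against 81.0 RPKM in CD8 (1.52-fold, 1.47 to 1.57). The 7 MAP4K genes had a median of 0.37 and 0 members past the rule. Map4k2 was at 188 and 171 RPKM and Map4k4 at 70.5 and 71.8. Of 11 Ras input genes (median 0.03, and -0.05 when centred on the median gene) 1 was at least 2-fold higher in CD8, Rras2, a Ras-family GTPase, at 82.9 against 36.1 RPKM (2.30-fold, 2.18 to 2.42). Rasgrp1, the main exchange factor for Ras in T cells, had 176 RPKM in CD4 and 111 RPKM in CD8 (1.58-fold, 1.55 to 1.62), and Rasgrp2 was at 195 and 163 RPKM. The 8 genes that restrain Ras and ERK had a median of -0.03 (0.15 when rescaled to the same sum of RPKM, 0.02 to the housekeeping list, 0.0033 with a filter at 5 RPKM) and 0 past the rule, with Rasal3 at 233 and 172 RPKM and Rasa3 at 214 and 169 RPKM.

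Adaptors and the T cell route to p38 gave 0 genes past the rule. The 10 scaffold and adaptor genes had a median of 0.20. Mapk8ip3, a JNK scaffold, had 42.2 RPKM in CD4 and 32.5 in CD8, and Lamtor2, which anchors the ERK relay on endosomes, had 49.0 and 61.4. The list made for the T cell route held 6 genes, the Gadd45 genes among them. Its median was -0.11, or 0.09 when rescaled to the same sum of RPKM. A place on the list does not show that Gadd45b and Gadd45g act in this route. Lck was at 585 and 545 RPKM and Zap70, the kinase that phosphorylates p38 directly, at 134 RPKM in CD4 and 151 in CD8 (ratio 0.886, 0.858 to 0.915). The stress-induced Gadd45 genes were picked after their values were seen. Gadd45a, which restrains this route, was at 6.53 and 6.80 RPKM (ratio 0.959, 0.784 to 1.17). Gadd45b was at 6.05 and 12.1 RPKM (ratio 0.502, 0.419 to 0.6) and Gadd45g at 2.14 and 5.03 RPKM (ratio 0.426, 0.306 to 0.586). Both intervals lay below 1, as did those of 27.0% of all genes.

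Downstream, the 10 MAPK-activated kinase genes had a median of 0.15 and 0 past the rule. Mknk2, a kinase of the translation factor eIF4E, was at 113 and 99.4 RPKM (1.14-fold, 1.1 to 1.17), and Rps6ka1, an ERK-activated ribosomal S6 kinase, at 99.97 and 73.7 (1.36-fold, 1.31 to 1.41). The p38 targets Mapkapk2 and Mapkapk3 were picked afterwards. Mapkapk2 was at 40.1 and 37.0 RPKM (1.08-fold, 1.02 to 1.15) and Mapkapk3 at 30.7 and 18.9 RPKM (1.62-fold, 1.51 to 1.74). The 13 transcription factor substrates had a median of 0.10 and 0 past the rule, with Jun at 56.0 and 47.8 RPKM and Elk4 at 52.6 and 42.8. Of 13 phosphatase genes (median -0.12, but 0.08 when rescaled to the same sum of RPKM and 0.20 with a filter at 5 RPKM) 1 was at least 2-fold higher in CD8, Dusp4, at 4.26 RPKM against 0.784 (5.43-fold, 3.96 to 7.58). Dusp2, which acts on ERK and p38, had 162 RPKM in CD8 and 97.5 RPKM in CD4 (1.66-fold, 1.60 to 1.73), and Ptpn7, a tyrosine phosphatase of ERK and p38, had 42.1 RPKM in CD8 and 73.0 RPKM in CD4 (1.73-fold higher in CD4, 1.66 to 1.81). Of 5 further MAP kinase family genes 2 were compared and 0 passed the rule, with Nlk at 26.3 and 23.6 RPKM, while Mapk4 and Mapk10 were listed at 0 in both libraries. Of all 105 compared genes on the pathway lists, these 2 included, 0 passed the size rule toward CD4 and 3 toward CD8, beside the 2.41% and 3.07% of all genes.

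**Figure D4:**
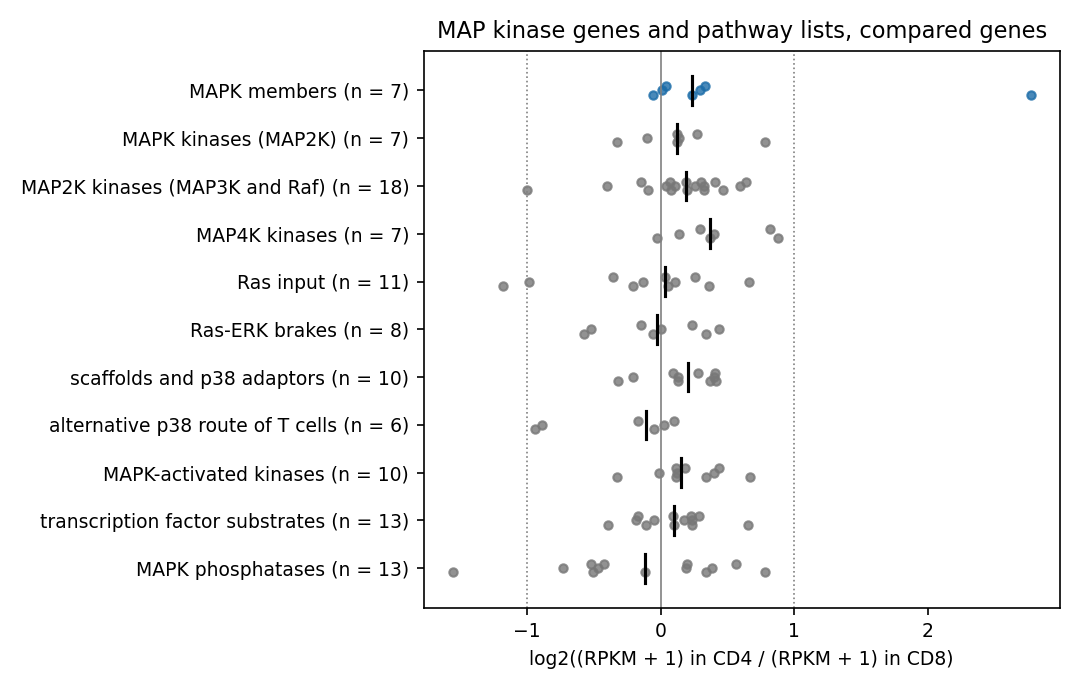
Log2 difference between naive CD4 and naive CD8 (with a pseudocount of 1 RPKM) of each compared gene, for the MAP kinase genes (blue) and 10 pathway lists (grey), where black bars are medians and dotted lines mark 2-fold. Mapk11 at 2.77 lies apart on the right, and the 3 pathway genes past the left line are Dusp4, Rras2 and Map3k8.

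The libraries carried the coreceptor genes of their labels, with Cd4 at 305 RPKM in CD4 and 8.89 in CD8, Cd8a at 2.50 and 518 RPKM, and Cd3e at 142 and 149 RPKM. Of the 7 T cell markers 2 were past the size rule toward CD4 and 0 toward CD8. These were Trat1, at 141 RPKM in CD4 and 33.5 in CD8, and Cd5, at 289 and 120. Markers of other cells were mostly low and some differed between the libraries. The 7 B cell markers summed to 3.76 RPKM in CD4 and 30.3 in CD8, with Cd79b alone at 2.14 and 28.8. The 5 NK cell markers summed to 7.99 and 107 RPKM, almost all of it Klrd1 (7.85 and 106), with Klra8 at 0 in both. Klrd1 and Klrb1c (0.0308 and 1.36 RPKM) were past the size rule toward CD8. Ncr1 had 0.111 RPKM in CD4 and Klre1 0.139 RPKM in CD8, each listed at 0 in the other library. The 4 regulatory T cell markers summed to 6.71 RPKM in CD4 and 14.4 in CD8, but they were split. Foxp3, the defining gene of these cells, had a CD4 level of 1.40 RPKM and a CD8 level of 0.161 (8.74-fold, 5.12 to 16.0), past the size rule toward CD4, and Il2ra at 0.421 and 0.218. Ctla4, at 3.82 and 8.64, and Ikzf2, at 1.07 and 5.38, were past the rule toward CD8. The 8 measured myeloid markers summed to 10.9 and 8.78 RPKM, with Cd14 at 0. Of these Fcgr3 was past the rule toward CD4, at 4.86 and 1.21 RPKM (4.0-fold, 2.81 to 5.84), and S100a8 toward CD8, at 0.520 and 2.48. Itgam was at 1.62 and 0.559 RPKM (2.89-fold, 2.16 to 3.92). The dendritic, erythroid and platelet lists each summed to at most 1.34 RPKM in a library. The stroma list summed to 105 and 52.5 RPKM, nearly all from Pecam1, which T cells also express. Foxp3, Fcgr3, Itgam and Pecam1 thus stood higher in the library with more Mapk11. S100a8, Emr1 and the dendritic marker Itgax (0.263 RPKM in CD4 and 1.07 in CD8) stood lower there. The sums of the B cell, NK cell and regulatory T cell lists also stood lower there. The part of other cells in the Mapk11 difference was not tested, and in such bulk RNA a smaller number of cells that express a gene and less RNA per cell cannot be told apart.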

How the data were processed

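The deposited values are RPKM, read counts that the authors divided by gene length and library total, 1 value per gene symbol and row. The submitters' processing notes list TopHat and HTSeq with no version, and mm9 as the build. Not given in the sources used here are the annotation, the strand setting and the treatment of reads with several map positions. Each file had 26882 rows for 23167 symbols, and repeated rows carried the same value and were counted once. Read numbers were worked back from the RPKM. The relative depth came from genes with few reads. The totals taken were those at which whole gene lengths most often lay near annotated ones (GENCODE M21). Of 527 genes used for this, 279 had a whole length at the CD4 total taken, and 142 of these lay near an annotated length. At the next best CD4 total, 8247315, 42 did. Reads were recovered for 99.7% of the 12735 genes above 0 in both libraries.

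With 1 library per group, genes reaching 1 RPKM in either library were compared by log2 difference with a pseudocount of 1 RPKM, and 2-fold was the size rule. Ratios of single genes carry no pseudocount and have exact (Clopper-Pearson) 95% intervals, and levels have exact Poisson intervals. The members and lists were chosen with earlier results of these data known. All members, the 2 highest genes of each list and up to 3 past the rule were named, with the neighbours of the p38 genes and the 3 genes closest to Mapk11. Names outside this rule are said to be so, and 2 further genes picked by it are not reported here. Alternatives were other pseudocounts, filters and scalings. Python 3.11.15, NumPy 2.4.6, SciPy 1.17.1 and matplotlib 3.10.9 were used.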

Additional observations from a re-analysis of the deposited data

How the results depend on the processing

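The count of members at least 2-fold apart (1 in CD4, 0 in CD8) was the same under all 7 alternatives. The log2 difference of Mapk11 ranged from 2.02 with a pseudocount of 5 RPKM to 3.06 with 0.1 RPKM, and Mapk6, Mapk9 and Mapk14 stayed above 0 in all 5 that apply to single genes. The scale of the libraries limits differences this small, since rescaling to the same sum of RPKM moved the median gene by 0.19. Pathway genes past the rule toward CD8 numbered 6 with a pseudocount of 0.1 RPKM (Dusp16, Gadd45g and Rras added), 5 when centred on the median gene (Gadd45g and Rras added), 2 when rescaled to the housekeeping list (without Map3k8), 2 with a filter at 5 RPKM (without Dusp4), 1 with a pseudocount of 5 RPKM (Rras2) and 1 when rescaled to the same sum (Dusp4), which also put 1 gene, Mink1, past it toward CD4. As shares of reads, which count longer genes more, Mapk11 was 34.5% of p38 in CD4 and 7.13% in CD8, Mapk14 65.1% and 92.9%, and Mapk9 67.5% of JNK in CD4 and 62.7% in CD8. The interval of Mapk11 at the smallest possible reads was added after seeing the data. No paired analysis was possible because each group has 1 library. No replicate could be left out, and depth limits Mapk12 most.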
